A study of Mus musculus with 5 samples.

Results

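The 9 genes described here encode the mouse MHC class I molecule and the machinery that supplies it with peptide: B2m, H2-D1, H2-K1, H2-T23, Tap1, Tap2, Tapbp, Psmb8 and Psmb9. They were chosen by gene symbol alone, with no measured value in the rule, and are 9 of the 55385 genes listed in each library. They were measured by Surface-seq, which sequences RNA carried by membrane-coated nanoparticles (MCNPs), particles wrapped in plasma membrane purified from cells so that the outer face of the membrane points outward. The cells were EL4, an established mouse T-cell lymphoma line grown in suspension. The labels name no treatment that differed between libraries, but the titles also carry short codes, different for each variation A library and shared by both of variation B, that are not explained. In variation A (3 libraries, A1 to A3) RNA was first extracted from the MCNPs with phenol and chloroform, its ends were repaired and adaptors were then ligated, so that all RNA held by the membrane could enter the library. In variation B (2 libraries, B1 and B2) the 3′ adaptor was ligated onto RNA still attached to intact MCNPs, which favours RNA reachable from outside, and RNA was recovered afterwards. The labels attach to every library the same protocol for labelling new RNA with ethynyl uridine and staining fixed cells, and do not say whether the cells used for MCNPs went through it. The side of the membrane and the library protocol cannot be told apart by this design, and the labels do not say that libraries of a variation came from separate cultures, so p-values measure the spread between these libraries, which may be technical.

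An MHC class I molecule is a heavy chain held together with the small soluble chain beta-2-microglobulin and a short peptide, and it shows the cell's internal peptides to cytotoxic T cells. Proteasomes cut the peptides in the cytosol, the TAP transporter moves them into the endoplasmic reticulum, and tapasin holds empty class I molecules beside the transporter until a peptide binds. The heavy chains, beta-2-microglobulin, the TAP subunits and tapasin are made on ribosomes at the endoplasmic reticulum, whereas the proteasome subunits are made in the cytosol. Lymphocytes carry much class I on their surface, and interferon gamma raises most of these genes together.

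The libraries differed in depth, and A1 stood apart within its group. Variation A libraries held 1187117 to 4502174 counts and variation B libraries 21862003 and 22980172, so 3 counts were worth a CPM (the count scaled to the library total) of 0.666 to 2.53 in variation A and at most 0.137 in variation B. Protein-coding genes took 39.4% of the counts of A1, at most 22.6% of those of A2 or A3, and 63.6% and 64.6% of those of B1 and B2, and most of the remaining counts lay on ribosomal RNA. The libraries carried T-lineage RNA: 13 of 14 T-lineage markers had enough counts to be tested, and their summed CPM on library totals was 654 to 965 in variation A and 2476 to 2648 in variation B. On the TMM scale used below, their median log2 fold change was 0.19. By edgeR 2 were called higher and 1 lower, where 11.0% of all genes tested were called higher and 12.4% lower. The B-cell markers Ms4a1, Cd79a and Cd79b had at most 10 counts in any library and Adgre1, a macrophage marker, had none, whereas Ighm of the B-lineage list was counted in every library and Lyz2 of the myeloid list had 73 and 133 counts in B1 and B2 and none in variation A. Both were called higher in variation B by edgeR. Ighm had a TMM-scaled CPM of 47.6 to 50.4 against 123 and 134 (log2 fold change 1.39, adjusted p = 0.0099 from edgeR). Lyz2 had an adjusted p of 0.0365 from edgeR. It passed the filter on low counts through variation B alone, the group in which it is high, so its call carries that limit. Neither call was left without A2, without B1, without B2 or in the edgeR test against a fold change of 2, and that of Lyz2 was also lost without A3. Without B1 and without B2, the log2 fold change was 1.44 and 1.32 for Ighm, and 8.23 and 7.37 for Lyz2. The part of both genes in the results was not tested.

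All 9 transcripts were present in all 5 libraries. Each had a CPM above 2 in every library, which held for 32.1% of the protein-coding genes listed. Together they took 0.0986% of the counts of A1 (Wilson 95% interval 0.0946 to 0.103), 0.108% of A2 and 0.102% of A3, against 0.325% of B1 and 0.332% of B2 (interval 0.330 to 0.334). The mean share of the variation A libraries was 0.103% ± 0.00474 (SD, n = 3), that of the variation B libraries was 0.328% ± 0.00491 (SD, n = 2), and the groups did not overlap. With ribosomal RNA and mitochondrial genes left out, the mean share was 0.220% in variation A and 0.442% in variation B. Counted over protein-coding genes alone, the share was 0.250%, 0.478% and 0.466% over A1 to A3 and 0.511% and 0.514% over B1 and B2, a smaller gap. Reads carried no molecular identifiers, so such intervals cover counting error only.

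Per kilobase of exon, the classical heavy chains H2-D1 and H2-K1 and beta-2-microglobulin stood above every transcript of the loading machinery in each library, whereas the heavy chain H2-T23 was lowest in variation A (right panel of the plot of member levels by library). The levels as RPKM (CPM per kilobase of exon) were 131 ± 18.1 for H2-D1, 106 ± 13.2 for H2-K1 and 87.6 ± 62.9 for B2m in variation A (SD, n = 3), while variation B had 498 ± 1.85, 235 ± 6.98 and 695 ± 12.7 (SD, n = 2). B2m ranked first in A1, B1 and B2, and behind H2-D1 and H2-K1 in A2 and A3, so its place in the order of variation A rested on the library. In variation A Tapbp came next with 28.6 ± 5.82, followed by Tap2 with 17.9 ± 1.81. The next levels were 13.0 ± 0.734 for Tap1 and 11.8 ± 2.11 for Psmb8, whose order changed between libraries. Psmb9 with 4.59 ± 1.11 and H2-T23 with 2.52 ± 0.423 were lowest. In variation B Tap2 (78.3 ± 2.85 RPKM) and Tap1 (48.4 ± 4.48) came next, and Tapbp (14.8 ± 2.12) came after Psmb8 (17.9 ± 0.735). The order of the 9 genes was the same in B1 and B2. Among the protein-coding genes with any count in the library, H2-D1 had a higher RPKM than 99.8% to 99.9% in every library, whereas H2-T23 exceeded 61.4% to 73.3% of them. The set of genes compared was each library's own, so these ranks are not strictly comparable between libraries.

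**Figure D1:**
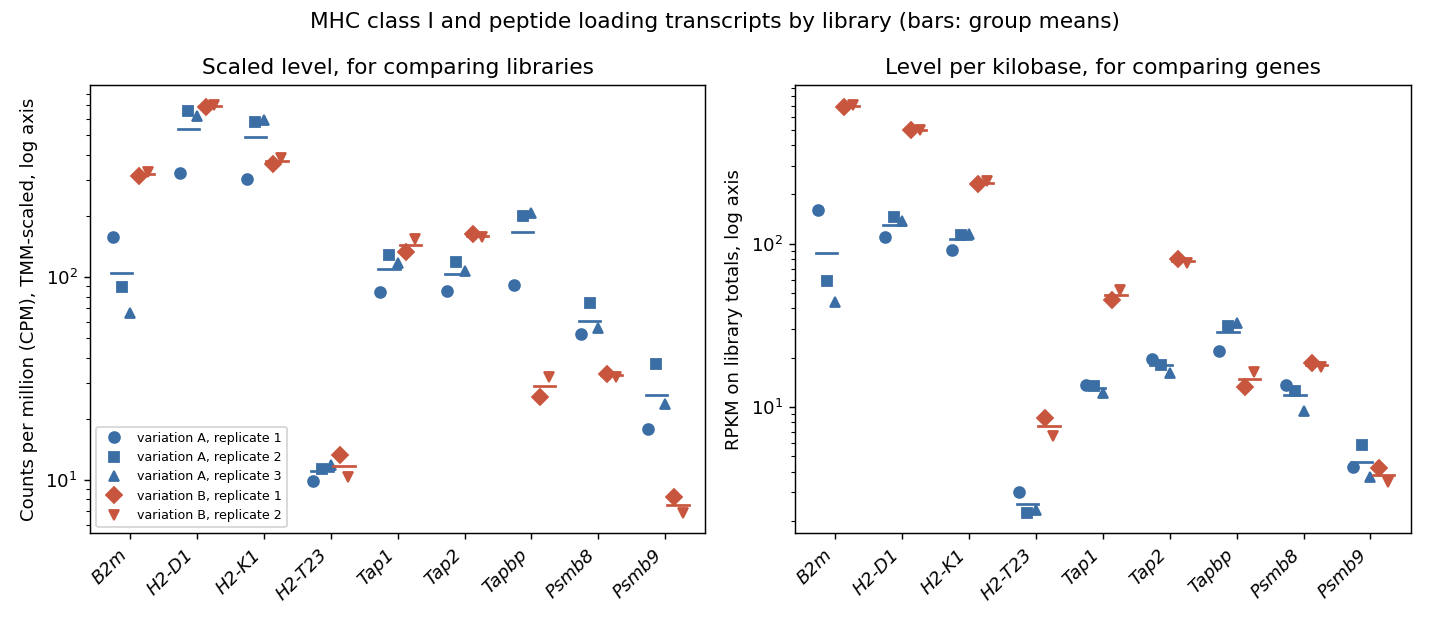
Level of each of the 9 transcripts in the 3 variation A libraries (blue) and the 2 variation B libraries (red), on log axes, with bars at the group means; the left panel gives CPM on TMM-scaled library sizes, for comparing libraries, and the right panel gives RPKM on library totals, for comparing genes. In the left panel B2m is higher and Tapbp, Psmb8 and Psmb9 are lower in both variation B libraries than in all 3 variation A libraries, and the points of H2-K1 and H2-T23 overlap.

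Which of these transcripts were enriched when the adaptor was ligated from outside was examined with edgeR over 10287 genes, on library sizes scaled by TMM (the trimmed mean of M values, which sets the middle of all genes level). A gene was called when its adjusted p was under 0.05 and its fold change above 2. Of the 9 members 1, B2m, was called higher in variation B, where 11.0% of all genes tested were called higher, and 2, Tapbp and Psmb9, were called lower, where 12.4% were. Without regard to a test, 4 members (B2m, H2-D1, Tap1 and Tap2) lay higher in both variation B libraries than in every variation A library on the TMM scale, as did 31.2% of all genes, and 3 (Tapbp, Psmb8 and Psmb9) lay lower, as did 26.7%. The median log2 fold change of the members was 0.11 and that of all genes was 0.05. Without A1, all 3 were called as well, with log2 fold changes of 2.13 for B2m, -2.69 for Tapbp and -1.99 for Psmb9. In that fit 2526 of all genes were called higher and 1821 lower. Without A2 or without A3, Tapbp alone of the members was called. The losses without B1 or B2 are given with each gene below. In the following, a log2 fold change is the difference of variation B from variation A on the TMM scale, with an approximate standard error (SE, the log2 fold change over the root of the F statistic), and adjusted p-values come from the quasi-likelihood test of edgeR, by the method of Benjamini and Hochberg over all genes tested.

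The soluble light chain gave the one call towards variation B. B2m (ENSMUSG00000060802.8, chr2:122147686-122153083, plus strand) encodes beta-2-microglobulin, which class I heavy chains need to reach the surface in normal amounts. Its TMM-scaled CPM was 157, 88.7 and 66.7 over A1 to A3, and 315 and 329 over B1 and B2. Both variation B libraries lay above all 3 of variation A, and A1 lay well above A2 and A3. The log2 fold change was 1.62 (SE 0.38, adjusted p = 0.021), and it ranged from 1.45 to 2.13 as single libraries were left out. The call was lost without A2 (adjusted p = 0.0888), without A3 (0.0801), without B1 (0.116) and without B2 (0.148), each by edgeR. It was also lost in the edgeR test against a fold change of 2 (adjusted p = 0.156), with the replicate number as a block (0.0775) and, for its size of 0.85 on the log2 scale, with the trend with GC content removed.

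The window of 250 bases before the RefSeq start of B2m is shown because its transcript was the one called higher. It also matched fewer of the patterns below, as spelled, than the windows of H2-K1 and H2-D1. It lies at chr2:122147437-122147686 on the plus strand (RefSeq, GRCm38.p6, the build of the counts). 4 short sequences known from class I promoters were looked for on both strands in such windows: CCAAT, the binding sequence of the factor NF-Y, which reads ATTGG on the other strand, TGACG, as in cyclic AMP response elements and read as CGTCA on the other strand, TTTCNNTTC (GAANNGAAA), as in interferon-stimulated response elements, and GGGNNTTCC (GGAANNCCC), as in sites of NF-kappa B. They occurred in 33.8%, 17.8%, 6.31% and 4.98% of 32851 promoter windows of that length. Capitals mark every match. The B2m window held TGACG at position -78 and CCAAT at position -53, counted upstream from the start, and no match to the other patterns as spelled here. Longer spellings of such sites were not looked for, so a window without a match may still hold such a site. The letters gaaactgaaa and ggaaagtccc in the B2m window are close to the interferon response and NF-kappa B patterns without matching them.
B2m promoter: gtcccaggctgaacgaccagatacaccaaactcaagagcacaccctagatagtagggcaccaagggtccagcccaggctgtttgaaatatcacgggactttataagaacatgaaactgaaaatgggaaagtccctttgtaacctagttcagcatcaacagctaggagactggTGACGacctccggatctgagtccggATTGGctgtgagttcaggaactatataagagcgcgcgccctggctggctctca

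The classical heavy chains, which carry most of the peptides seen by cytotoxic T cells, were among the highest transcripts, and neither was called. H2-D1 (ENSMUSG00000073411.12, chr17:35262730-35267499, plus strand) had a TMM-scaled CPM of 325, 656 and 619 over A1 to A3, and of 684 and 701 over B1 and B2. The variation B values lay just above the highest of variation A. Its log2 fold change was 0.38 (SE 0.39, adjusted p = 0.502 from edgeR). H2-K1 (ENSMUSG00000061232.16, chr17:33996017-34000347, minus strand) had 304, 578 and 592 over A1 to A3, and 361 and 384 over B1 and B2. Both variation B values fell between A1 and the other 2 variation A libraries, so the groups overlapped. Its log2 fold change was -0.40 (SE 0.38, adjusted p = 0.463), and its sign was not stable, being 1.15 on library totals and 0.17 with the trend with GC content removed.

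H2-K1 and H2-D1 stood close to each other in variation A and apart in variation B. The ratio of H2-K1 to H2-D1 counts within a library, which needs no scaling, was 0.936, 0.881 and 0.957 over A1 to A3, and 0.528 and 0.548 over B1 and B2. The ratio lay lower in both variation B libraries than in all 3 variation A libraries, with a log2 difference of -0.78 (mean log2 ratio -0.11 ± 0.06, SD, n = 3, against -0.89 ± 0.04, n = 2). The exact permutation test over libraries, two-sided, gave p = 0.1, the smallest that 3 against 2 libraries allow, and 0.2 after Benjamini-Hochberg adjustment over the 6 ratios tested. No such ratio could therefore pass 0.05 in this design.

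Both heavy chains are near copies of each other in part of their sequence, and the counting left out reads that align equally well to several places. Of the distinct 25-base words in the transcripts of H2-D1, 36.3% also occurred in transcripts of another gene and 18.7% in H2-K1. For H2-K1 these shares were 31.7% and 15.3%, the latter with H2-D1. No 25-base word of B2m occurred elsewhere. The longest identical coding run of H2-K1 and H2-D1 measured 91 bases and lay within exon 4 of both, the exon of the membrane-proximal alpha-3 domain, at chr17:33997343-33997433 (minus strand) and chr17:35265911-35266001 (plus strand) of GRCm38. Reads lying wholly in this run cannot be assigned to either gene and are missing from both counts, and what part this had in their ratio was not tested.
H2-K1 and H2-D1 shared coding run: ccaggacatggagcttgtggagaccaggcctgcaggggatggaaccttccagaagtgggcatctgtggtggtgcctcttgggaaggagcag

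The promoter windows of H2-K1 and H2-D1 matched all 4 of the patterns as spelled above, where that of B2m matched 2. The H2-K1 window (chr17:34000348-34000597, minus strand) is printed whole as the example.
H2-K1 promoter: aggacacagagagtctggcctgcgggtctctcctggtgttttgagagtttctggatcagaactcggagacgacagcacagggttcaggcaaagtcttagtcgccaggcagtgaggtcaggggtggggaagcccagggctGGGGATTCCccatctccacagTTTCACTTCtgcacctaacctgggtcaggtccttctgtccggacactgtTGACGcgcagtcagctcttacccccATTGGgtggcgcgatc
The 30 bases from the NF-kappa B pattern to the interferon response pattern are printed for both genes, at chr17:34000429-34000458 (minus strand) and chr17:35262923-35262952 (plus strand), because they are nearly the same. They differed at 1 of 30 positions, T18A from H2-D1 to H2-K1, counted from 1 at the 5′ end.
H2-K1 stretch: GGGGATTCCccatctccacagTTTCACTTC
H2-D1 stretch: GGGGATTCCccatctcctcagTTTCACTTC
These matches are a description of the letters and say nothing of binding in EL4 cells. H2-D1 has a longer first exon in the annotation used for counting than in RefSeq, and its RefSeq window lies wholly inside that exon.

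H2-T23 (ENSMUSG00000067212.8, chr17:36029773-36032855, minus strand) encodes a nonclassical heavy chain that shows leader peptides of other class I molecules to receptors of natural killer cells. It was the least counted member in variation A, with 20, 29 and 8 counts over A1 to A3, against 541 and 436 over B1 and B2. On the TMM scale its CPM was 9.92, 11.3 and 11.8 in variation A and 13.2 and 10.3 in variation B, and the groups overlapped. The log2 fold change was 0.11 (SE 0.35, adjusted p = 0.836 from edgeR). In all, 30.5% of its 25-base words occurred in other genes, 15.3% in H2-T-ps.

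The heavy chains were compared with their light chain by the ratio of H2-K1 plus H2-D1 counts to B2m counts, which was 4.01, 13.9 and 18.0 over A1 to A3, and 3.32 and 3.30 over B1 and B2. The variation B ratios were alike and lay below all of variation A, but A1 lay close to them. The log2 difference was -1.60 (exact permutation p = 0.2, two-sided, 0.24 adjusted over the 6 ratios). It ranged from -1.17 without A3 to -2.26 without A1.

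Both subunits of the peptide transporter lay slightly higher in variation B, and neither was called. Tap1 (ENSMUSG00000037321.17, chr17:34187553-34197225, plus strand) and Tap2 (ENSMUSG00000024339.12, chr17:34203527-34216321, plus strand) form TAP, which uses ATP to carry peptides into the endoplasmic reticulum. Tap1 had a TMM-scaled CPM of 84.3, 128 and 117 over A1 to A3, and of 132 and 154 over B1 and B2. Tap2 had 84.8, 119 and 107 in variation A and 162 and 157 in variation B. For both genes the variation B libraries lay above all of variation A, and A1 was lowest. The log2 fold change was 0.38 for Tap1 (SE 0.30, adjusted p = 0.368 from edgeR) and 0.62 for Tap2 (SE 0.29, adjusted p = 0.138 from edgeR), so neither was called. The ratio of Tap1 to Tap2 counts was 0.994, 1.08 and 1.10 over A1 to A3, and 0.816 and 0.979 over B1 and B2. That is a log2 difference of -0.24 with no overlap (exact permutation p = 0.1, two-sided, adjusted 0.2).

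Tapbp, the bridge of the loading complex, fell in variation B. Tapbp (ENSMUSG00000024308.15, chr17:33915899-33929292, plus strand) encodes tapasin, which bridges class I molecules and TAP. Its TMM-scaled CPM was 90.8, 199.5 and 207 over A1 to A3, and 25.7 and 32.1 over B1 and B2. Every variation A library lay above both of variation B. The log2 fold change was -2.52 (SE 0.43, adjusted p = 0.0075 from edgeR), the largest in size of the 9, and Tapbp was also called in the edgeR test against a fold change of 2 (adjusted p = 0.0282). On library totals Tapbp was the 1 member lower in both variation B libraries than in every variation A library, as were 5.06% of all genes tested, but its log2 fold change was then -0.95 (adjusted p = 0.0535 from edgeR) and it was not called. The call was lost as well without B1 (adjusted p = 0.0841 from edgeR) and without B2 (0.0858), with log2 fold changes of -2.37 and -2.70. Of the 3628 exon bases of Tapbp, 904 (24.9%) also belong to Gm19412, an antisense gene with no counts in any library, and 149 to Zbtb22. Because the counting ignored strand and dropped reads over more than 1 gene, reads from those bases are missing from Tapbp in all libraries, and their part in the fall was not tested.

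Of the inducible proteasome subunits, Psmb9 fell in variation B on the TMM scale and Psmb8 did not pass the test. Psmb8 and Psmb9 encode catalytic subunits that take the places of Psmb5 and Psmb6 in immunoproteasomes and change which peptides are cut. Psmb9 (ENSMUSG00000096727.3, chr17:34181987-34187764, minus strand) had a TMM-scaled CPM of 17.9, 37.3 and 23.7 over A1 to A3, and of 8.20 and 6.86 over B1 and B2, with no overlap. Its log2 fold change was -1.82 (SE 0.40, adjusted p = 0.0164 from edgeR). The call of Psmb9 was lost without A2 (adjusted p = 0.0759 from edgeR, log2 fold change -1.36), without A3 (0.0513), without B1 (0.112) and without B2 (0.166). On library totals its log2 fold change was -0.29 (adjusted p = 0.50 from edgeR), and its CPM overlapped, with 13.5 to 21.3 in variation A and 12.6 and 15.4 in variation B. Psmb8 (ENSMUSG00000024338.15, chr17:34197721-34201454, plus strand) had 52.1, 74.3 and 56.3 in variation A and 33.3 and 32.0 in variation B, again with no overlap. Its log2 fold change of -0.90 (SE 0.30, adjusted p = 0.056 from edgeR) did not pass the threshold, and on library totals it was 0.60.

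The balance between both inducible subunits was read from the ratio of Psmb8 to Psmb9 counts. It was 2.89, 1.98 and 2.33 over A1 to A3, and 4.06 and 4.66 over B1 and B2, a log2 difference of 0.87 with no overlap (exact permutation p = 0.1, two-sided, adjusted 0.2). Against the standard subunits they replace, the picture was less even. Psmb8 over Psmb5 was 11.1, 8.51 and 2.48 in variation A and 39.6 and 9.18 in variation B, where B2 lay within the range of variation A (exact permutation p = 0.4, two-sided, adjusted 0.4). Psmb9 over Psmb6 was 0.670, 1.01 and 0.892 in variation A and 0.650 and 0.453 in variation B, with B1 just under A1 (log2 difference -0.64, exact permutation p = 0.2, two-sided, adjusted 0.24). Psmb5 was counted 9 to 22 times in variation A, so its ratio is imprecise.

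**Figure D2:**
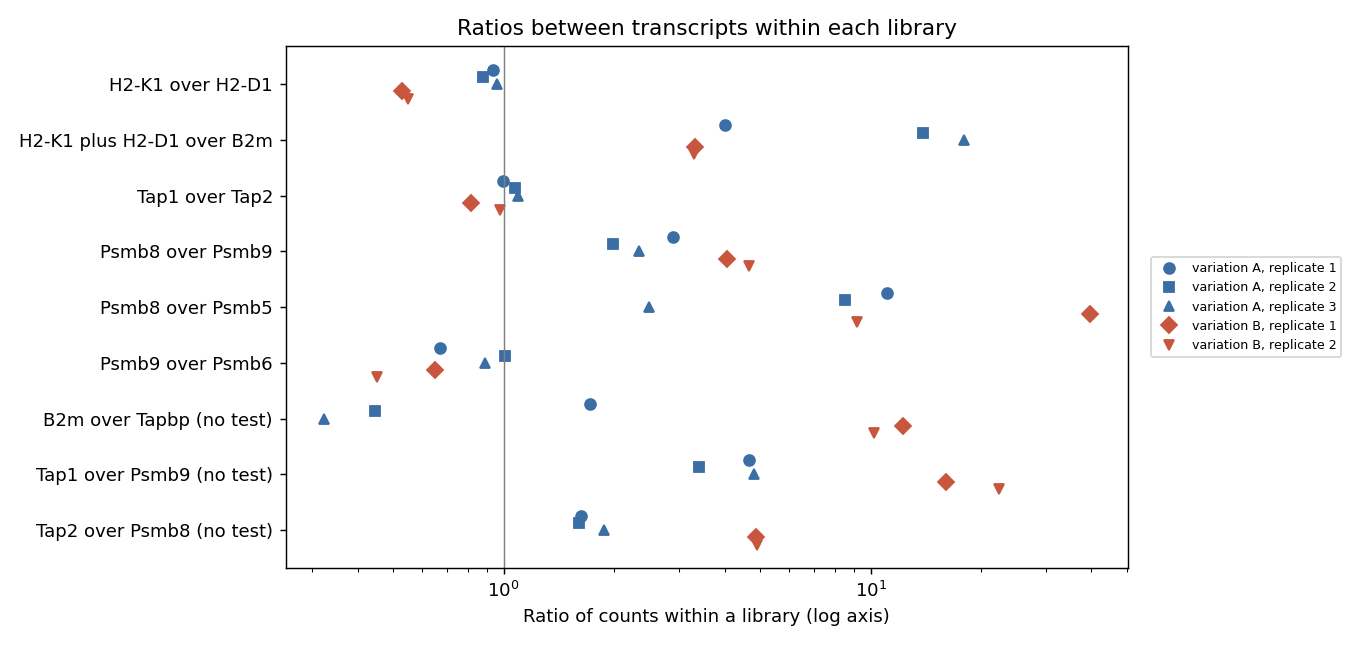
Ratio of the counts of 2 transcripts, or of H2-K1 plus H2-D1 to B2m, within each library on a log axis, for variation A (blue) and variation B (red), with a line at a ratio of 1; 6 ratios were tested and the lowest 3 were picked after their values were seen and have no test. H2-K1 over H2-D1 is at least 0.881 in variation A and at most 0.548 in variation B, and B2m over Tapbp is at most 1.72 in variation A and at least 10.3 in variation B.

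Psmb9, Tap1, Psmb8 and Tap2 lie next to each other on chromosome 17, and Psmb9 and Tap1 are read in opposite directions from starts 225 bases apart in RefSeq (chr17:34187331-34187555 lies between them). These neighbours took different values. The ratio of Tap1 to Psmb9 counts, chosen after the values were seen and not tested, was 4.67, 3.41 and 4.82 over A1 to A3, and 16.1 and 22.4 over B1 and B2. The ratio of Tap2 to Psmb8 counts, chosen in the same way, was 1.63, 1.60 and 1.88 in variation A and 4.86 and 4.90 in variation B. The widest gap between members was that of B2m over Tapbp, at 1.72, 0.445 and 0.324 in variation A and 12.2 and 10.3 in variation B. The stretch of the shared interval around its TGACG match, at chr17:34187458-34187487 on the plus strand, is shown because it lies upstream of both RefSeq starts. In the annotation used for counting, all 225 bases of the interval lie in exons of Psmb9 or Tap1.
Psmb9 and Tap1 interval stretch: cccagagacaggTGACGacagagggtcctg
The interval also held a CCAAT match beside the start of Psmb9, and neither the interferon response nor the NF-kappa B pattern as spelled here. Of the 4 patterns as spelled, the H2-T23 and Tapbp windows held CCAAT alone, and that of Psmb8 held none. The letters tttctctttc in the H2-T23 window are close to the interferon response pattern without matching it. Psmb9 and Tap1 share 212 exon bases in the annotation used for counting, Tap2 shares 533 with Gm15821 and 165 with Gm20496, and Psmb8 shares 498 with Gm20496. Gm20496 had no counts and Gm15821 at most 6 in any library.

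The size and in part the sign of these differences depended on the scale. On library totals, where all genes had a median of 1.50 in place of 0.05 and 5668 were called higher and 301 lower against 1135 and 1276 on the TMM scale, 7 members lay higher in both variation B libraries than in all of variation A, as did 75.0% of all genes tested, and 6 were called higher and none lower by edgeR, with Tapbp lower at an unadjusted p of 0.0322. At an unadjusted p under 0.05, 4 of the 9 members differed in the TMM fit, as did 40.0% of all genes tested. Relative to the median of all genes, the library-total values were 1.49 for B2m, 0.63 for Tap2, 0.43 for H2-D1, 0.40 for Tap1, 0.09 for H2-T23, -0.35 for H2-K1, -0.90 for Psmb8, -1.79 for Psmb9 and -2.45 for Tapbp. Read in this way, the order of the members was nearly that of the TMM scale, on which Tap1 and H2-D1 were level at 0.38.

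GC content moved with the difference between the variations across all genes (the plot of GC content against fold change). Over 10285 genes the Spearman correlation of GC content, taken from the longest annotated transcript of each gene, with the log2 fold change was -0.486. This is a description across genes that share the same 5 libraries. B2m was the 1 member of low GC content, 41.2%, lower than all but 10.2% of the genes tested, and genes within 1 percentage point of it had a median log2 fold change of 0.76. The other 8 members had a GC content of 52.5% to 57.1%, and genes like them had medians from -0.29 (Psmb8) to -0.85 (Tap2). Tapbp, at 57.1%, compared with a median of -0.84. With the trend with GC content removed in each library, an alternative chosen after seeing the data, the calls were different for the higher members. H2-D1 (log2 fold change 1.14, adjusted p = 0.0193), Tap1 (1.09, 0.0088) and Tap2 (1.43, 0.0031) were then called higher by edgeR. Of the 10287 genes tested, 1186 were called higher and 1028 lower in that fit. B2m, at 0.85 (adjusted p = 0.0312 from edgeR), fell short of a 2-fold change. Tapbp (-1.60, adjusted p = 0.0031 from edgeR) and Psmb9 (-1.31, 0.0133) were called lower as before. Whether GC content acts on these libraries or on the RNA they sample was not tested.

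**Figure D3:**
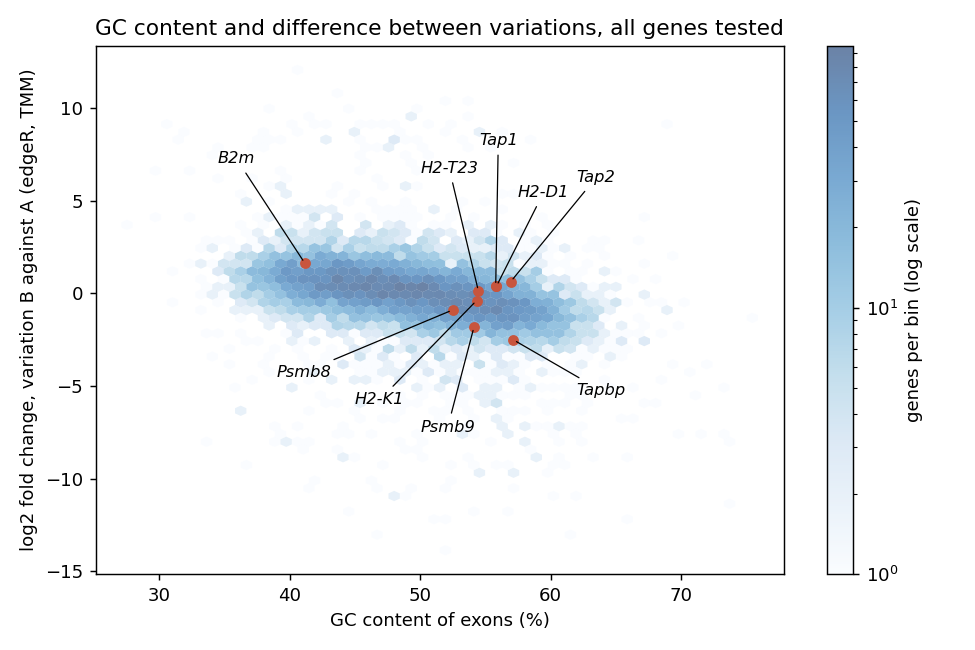
GC content in percent of the longest annotated transcript of each gene against the log2 fold change of variation B over variation A (edgeR, TMM scale) for all genes tested with a GC value, shown as the number of genes per hexagonal bin on a log colour scale, with the 9 members as labelled red points. B2m lies at 41.2% GC content, and the other 8 members lie between 52.5% and 57.1%, where the bulk of genes is below 0.

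**Figure D4:**
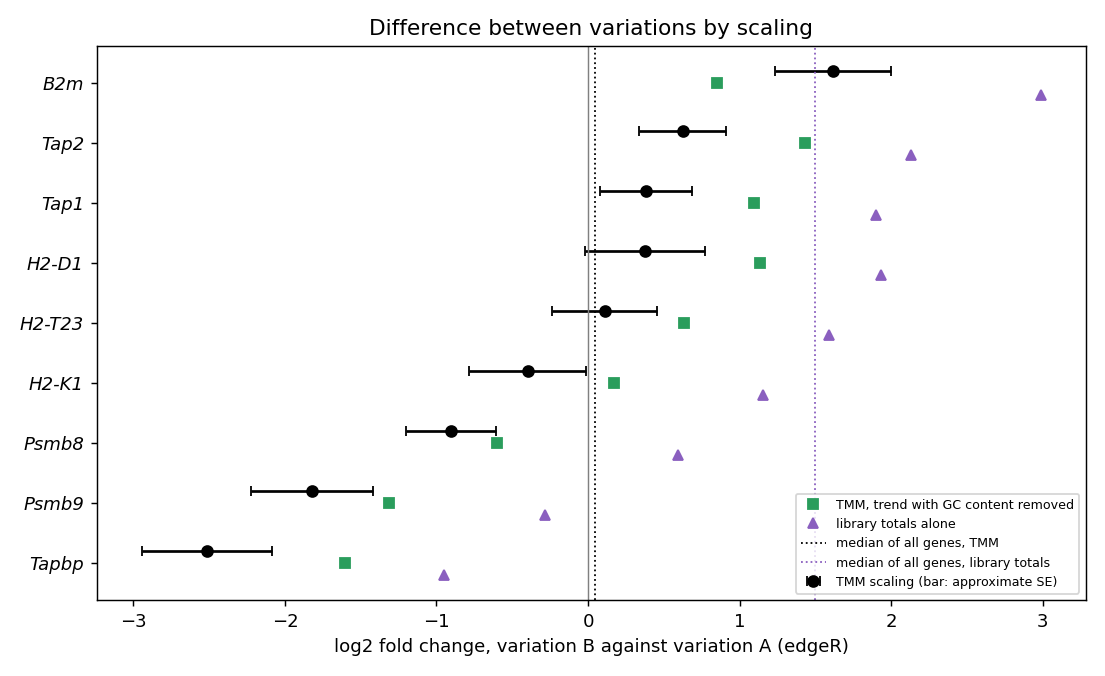
Log2 fold change of each member under 3 scalings: TMM (black, bars show the approximate SE), TMM with the trend with GC content removed (green squares) and library totals alone (purple triangles); dotted lines mark the median of all genes, 0.05 on TMM and 1.50 on library totals. Tapbp and Psmb9 stay below 0 in all 3 and B2m above 0, whereas H2-K1 is below 0 on TMM alone and Psmb8 rises above 0 on library totals.

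The other genes of the pathway did not move as one group. Their counts are to be read against all genes tested, of which edgeR called 11.0% higher and 12.4% lower and 40.0% had an unadjusted p under 0.05. Of 18 other MHC class I genes, 11 could be tested, 5 were called higher and none lower, with a median log2 fold change of 1.79. The filter on low counts asked for a CPM of about 2.22 in 2 libraries, and 4 of the 11 (H2-T24, Mr1, H2-Q1 and Hfe) reached it through variation B alone, so they entered the test only through the group in which they are high, and the count and median lean that way. Of the 6 that reached it within variation A, 3 were called higher, and the median over the 16 genes that DESeq2 could fit was 1.09. All 9 members reached it within each variation. The 3 largest of the called genes were H2-T24 at 3.93, with 10, 7 and 0 counts in variation A against 1868 and 2085 in variation B, Mr1 at 2.49 and H2-Q2 at 2.08 (adjusted p = 0.0029, 0.0107 and 0.0050 from edgeR). The calls of H2-T24 and Mr1 carry this limit. Mr1 encodes a class I-like molecule that shows vitamin metabolites to T cells. H2-Q4, the highest of the list per kilobase (mean RPKM 28.3 over libraries), was called higher at 1.24 (adjusted p = 0.019 from edgeR). At an unadjusted p under 0.05, 8 of the 11 differed, against 40.0% of all genes. DESeq2 and the fit with the GC trend removed each also called 5 higher and none lower, library totals 10 higher and the test against a fold change of 2 gave 3. Without B1 or without B2, 1 gene was called higher. H2-K1, H2-D1 and H2-T23 share sequence with the Q and T genes, so reads within this family are uncertain.

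Of 10 genes for the chaperones of the loading complex and for peptide trimming, 2 were called higher and none lower by edgeR, with a median of 0.62 and 2 genes at an unadjusted p under 0.05 (11.0%, 12.4% and 40.0% of all genes). DESeq2 made the same number of calls, library totals gave 7 higher, and 1 gene was called lower with the GC trend removed. Neither higher call was left without A2, A3, B1 or B2. Without A1, 5 were called higher, where 2526 of the 12127 genes tested in that fit were. Erap1, the aminopeptidase that trims peptides in the endoplasmic reticulum, had a log2 fold change of 2.02 (adjusted p = 0.0303 from edgeR). Calr, the chaperone calreticulin and the highest of the list per kilobase (mean RPKM 121), had 1.19 (adjusted p = 0.0303 from edgeR). Calreticulin and tapasin sit in one complex, yet Calr rose and Tapbp fell.

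Of 14 subunits of the standard core proteasome, 1 was called higher and 3 lower (11.0% and 12.4% of all genes), with a median of 0.13, which was -0.32 with the GC trend removed (2 higher and 3 lower). DESeq2 called 3 higher and 4 lower, and library totals gave 7 higher and 0 lower with a median of 1.49. Without A1 there were 4 higher and 4 lower calls, where 2526 and 1821 of the 12127 genes tested in that fit were called. Without A2 or A3 there were 0 higher and 2 lower calls. None of the calls was left without B1 or without B2. Psmb1 rose by 1.06 (adjusted p = 0.0365 from edgeR), and Psmb7, Psmb3 and Psmb6 fell by 2.10, 1.49 and 1.13 (adjusted p = 0.0067, 0.0116 and 0.0366 from edgeR). Psma6 was the highest per kilobase (mean RPKM 78.4) and had a log2 fold change of 1.35 (adjusted p = 0.0675 from edgeR). Of the 3 further inducible proteasome genes, Psmb10, the remaining catalytic subunit of the immunoproteasome and the highest of the 3 per kilobase (mean RPKM 8.86), fell by 2.14 (adjusted p = 0.0062 from edgeR). Psme2, a subunit of the proteasome activator PA28, fell by 2.20 (adjusted p = 0.0342 from edgeR), and Psme1, its partner, had -0.86 (adjusted p = 0.0971 from edgeR). With Psmb9, 3 of the 5 inducible proteasome transcripts measured were thus called lower and none higher, where 12.4% of all genes were called lower. The 3 further genes also gave 2 lower calls with DESeq2 and with the GC trend removed, 1 in the test against a fold change of 2, without A2 and without A3, and 0 without B1, without B2 and on library totals, where their median was -0.68. Psmb9 was not called under any of these last 6 settings.

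**Figure D5:**
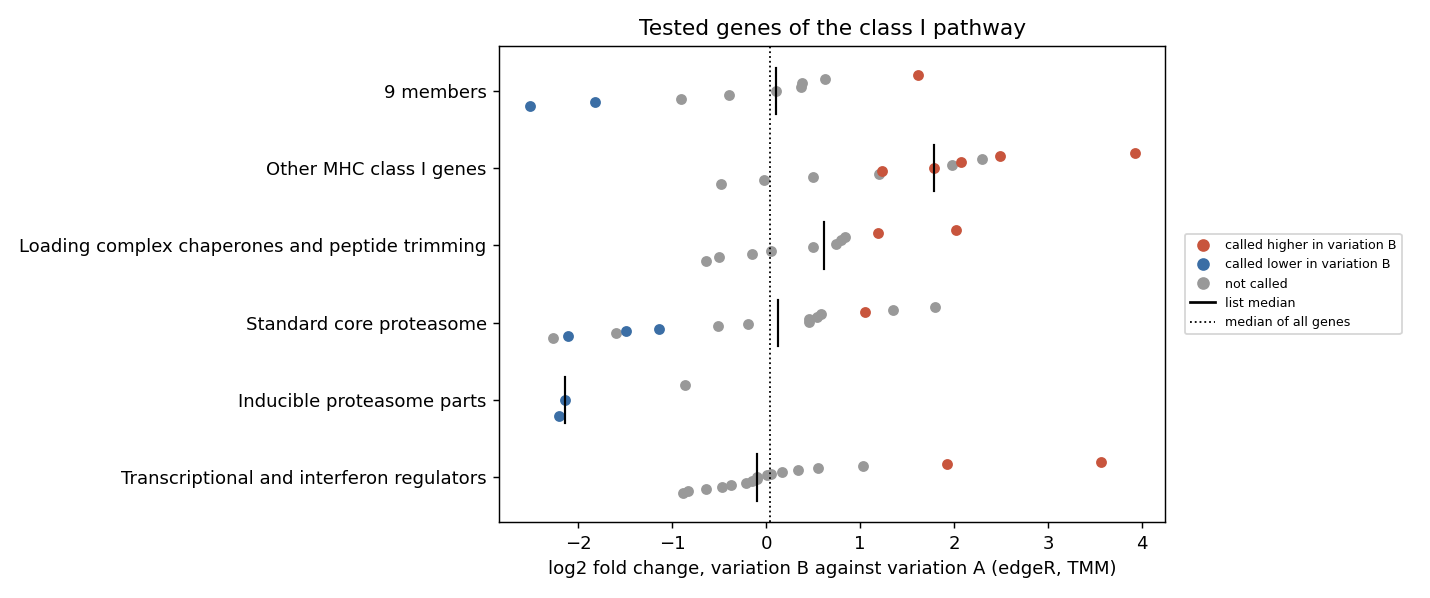
Log2 fold change of variation B over variation A (edgeR, TMM scale) for each tested gene of the 9 members and of 5 lists of the class I pathway, coloured by call, with black bars at list medians and a dotted line at the median of all genes. The 11 tested of the other class I genes, 4 of which passed the count filter through variation B alone, have a median of 1.79, the inducible proteasome parts a median of -2.14, and the 9 members span -2.52 to 1.62.

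Of 17 transcriptional and interferon regulators of these genes, 2 were called higher and none lower by edgeR, with a median of -0.10 and 3 genes at an unadjusted p under 0.05. These counts are near or below the shares of all genes, 11.0% called higher, 12.4% called lower and 40.0% at an unadjusted p under 0.05. DESeq2 gave the same counts, library totals gave 12 higher, and 1 was called higher when A2, A3, B1 or B2 was left out. Ifngr1, a chain of the interferon gamma receptor and the highest of the list per kilobase (mean RPKM 93.1), had a log2 fold change of 3.56 (adjusted p = 6.28e-04 from edgeR), and Jak2, a kinase that acts below it, had 1.93 (adjusted p = 0.0190 from edgeR). Nlrc5, the transactivator of class I genes, had -0.47 (adjusted p = 0.219 from edgeR). MHC class II, which T-cell lines of mice lack for the most part, was nearly absent: 2 of its 10 genes could be tested, none was called by edgeR or had an unadjusted p under 0.05, DESeq2 called 1 of 10 lower, and H2-Eb1, the highest per kilobase, had a mean RPKM of 3.30.

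The transcripts most like the mean profile of the members over the 5 libraries were Mcm3ap, Atp13a1 and Ywhag, at Euclidean distances of 0.0902, 0.0971 and 0.102 on centred log2 values. The mean was taken over the 8 members with at least 10 counts in every library, and 4599 genes were compared. The members themselves lay farther from their own mean, from 0.410 for H2-K1 to 2.51 for B2m, where the median of all genes was 1.11. The 3 similar genes had log2 fold changes of -0.23, -0.31 and -0.31, and none was called (adjusted p of 0.463 to 0.594 from edgeR).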

How the data were processed

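Per the submitters' processing notes and the study's methods, the authors used Trimmomatic 0.36 for trimming, STAR 2.7.3a for alignment to GRCm38 and featureCounts 1.6.4 for counting over exons of the M24 release of GENCODE. The deposited values are raw counts per gene and library, with no normalization and no pooling. Strand was not used in counting, and reads that aligned to several places or touched more than 1 gene were dropped. Each table holds 1 library, so every measured column was used.

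GENCODE M21 gave symbols to 55144 of 55385 genes through their identifiers. The libraries were grouped by the variation and replicate in their titles. The variations were compared over 10287 genes by edgeR 4.0.16 under R 4.3.3, with filterByExpr, TMM, a trended dispersion and the quasi-likelihood F test. Calls needed a Benjamini-Hochberg adjusted p under 0.05 as well as a fold change above 2. DESeq2 1.42.0 served as an alternative. On simulated counts for this comparison (10287 genes, 200 changed 4-fold), edgeR recovered 78.5% of the changed genes, and genes left unchanged made up 3.68% of its calls. Ratios were tested on log2 values with 0.5 added to each count, by exact permutation with scipy 1.17.1 in Python 3.11.15. RPKM used the deposited exon lengths and library totals. GC content was that of the longest GENCODE M21 transcript of each gene. Trends were removed with a lowess curve of span 0.3 in each library as an offset.

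The members, the lists and the rule for named genes (all members, of each list the 3 largest calls each way with at least 10 counts in a library and the highest gene per kilobase, the 3 most alike profiles and genes sharing exon bases) were chosen with earlier results of these data known. RefSeq promoter windows matched 8 of the 9 members. Tap2 had none. Every pair of libraries differed by more than sampling noise. Other alternatives were library totals, RLE and upper-quartile factors, no filter, ribosomal RNA and mitochondrial genes left out, libraries drawn down to the smallest total, other fold thresholds, a replicate block and each library left out.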

Additional observations from a re-analysis of the deposited data

How the results depend on the processing

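The counts of called members, 1 higher and 2 lower, did not change with RLE factors, DESeq2, no filter, ribosomal RNA and mitochondrial genes left out, no fold threshold or the trend with exon length removed. Library totals gave 6 higher and 0 lower (5668 and 301 of all genes). The trend with GC content removed (chosen after seeing the data) gave 3 higher and 2 lower (1186 and 1028 of all genes). The test against a fold change of 2 gave 0 higher and 1 lower (289 and 388 of all genes). Upper-quartile factors and drawing every library down to the smallest total (which leaves the share of protein-coding counts unequal) added Psmb8 to the lower calls, at log2 fold changes of -1.03 and -1.14. As single libraries were left out, 0 to 1 members were called higher and 0 to 2 lower, where 161 to 2526 of all genes were called higher and 137 to 1821 lower. Without A1 the 3 called members kept their calls. H2-K1 turned to 1.15 on library totals and 0.17 without the GC trend, Psmb8 to 0.60 on library totals, and H2-T23 to -0.013 with upper-quartile factors, and it ranged from -0.092 to 0.264 as single libraries were left out. The cause was not tested.

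The share of counts on the members was 0.398% in variation A and 0.512% in variation B over protein-coding genes, and 0.220% and 0.442% without ribosomal RNA and mitochondrial genes. All 6 ratios kept their direction with a pseudocount of 1 and with each library left out, but some changed much in size. The log2 difference of Psmb8 over Psmb5 was 1.63, and 0.57 without B1 and 2.68 without B2. That of Psmb9 over Psmb6 ranged from -0.90 to -0.38, and that of Tap1 over Tap2 from -0.37 to -0.11.

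With the replicate number as a replicate block, 0 members were called higher and 2 lower, and B2m had a log2 fold change of 1.45 (adjusted p = 0.0775 from edgeR). Of all genes, 761 were then called higher and 813 lower, against 1135 and 1276. Same-numbered libraries did not deviate together (correlations of -0.106 and -0.0493 over genes). B1 and B2 deviate from their mean by equal and opposite amounts, so these correlations are not independent. They cannot decide whether the numbers pair libraries.

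The small totals of variation A limit H2-T23 and Psmb9, at 8 and 16 counts in A3.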
